A study of Gallus gallus with 3 samples.

Results

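*COL1A2* (ENSGALG00000009641) and *DCN* (ENSGALG00000011274) are genes of the fibrous extracellular matrix, and their levels are described here in every cell population of the developing chicken hindlimb. Both were chosen by name and read from their own columns of the count tables, which hold 9073, 10804 and 9127 genes for HH25, HH29 and HH31. They are 2 of the 11442 genes that occur in any of these tables. Levels are given for each sub-cluster, the finest grouping of cells that the authors deposited with the counts.

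*COL1A2* encodes the alpha-2 chain of type I collagen, the main fibril-forming collagen of dermis, tendon, ligament and bone. *DCN* encodes decorin, a small leucine-rich proteoglycan (SLRP) that binds the surface of collagen fibrils, regulates their thickness and spacing, and binds TGF-beta. In the limb, fibroblasts of tendon, dermis and muscle connective tissue secrete both, whereas cartilage is built on type II collagen and aggrecan. Non-skeletal connective tissue (nsCT) is the study's name for limb mesenchyme of a connective tissue character that does not form cartilage.

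Single cells from chicken hindlimbs, with no mutation or treatment named in the labels, were dissociated with trypsin and profiled at 3 Hamburger-Hamilton stages, with 1 library per stage. The HH25 library held the whole autopod and came from 10x v2 chemistry. The HH29 library held digits 3 and 4 with the interdigit mesenchyme next to them and came from Drop-Seq. The HH31 library held the tip of digit 4 and came from 10x v2. After filtering there were 5938, 6806 and 4796 cells in 8, 18 and 11 sub-clusters, with medians of 2046, 2946 and 2482 UMIs (unique molecular identifiers, each marking 1 captured transcript) per cell. The HH29 library consists of 3 technical replicates, and the number of embryos behind each library is not given in the sources used here. Stage, dissection and platform changed together and cannot be told apart, so stages are set side by side and not tested. The HH25 and HH31 libraries shared 48 cell barcodes, and neither shared any with HH29.

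A level is the sum of a gene's UMIs over the cells of a population, per 1000000 UMIs of those cells (CPM). Brackets hold 95% intervals, exact Poisson for levels, exact binomial for shares of cells and exact conditional binomial for log2 ratios. These intervals cover counting error only, since cells of 1 library are not replicates. In such summed levels more transcript per cell and more cells that hold it cannot be told apart, and shares of cells with a UMI are therefore given beside them. Which genes shaped the authors' clustering is not given in the sources used here, so a sub-cluster set against the rest is a description. The study itself placed *COL1A2* and *DCN* at the centre of co-expression groups that it built from the HH29 cells and mapped to nsCT. It also reported *COL1A2* among the genes enriched in nsCT at all stages. Levels of the pair in nsCT, and their shared pattern at HH29, therefore describe genes already tied to nsCT and test nothing.

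The nsCT and skin sub-clusters carried the markers of their names for the most part. Of the nsCT markers with an identifier, 5 of 6, 7 of 7 and 5 of 6 at the stages in order were at least 2-fold higher in nsCT than in the other cells. Over all genes with at least 20 UMIs the shares were 4.65%, 4.03% and 4.96%. The study named *CRABP-I*, *ZFHX3*, *KCNJ2*, *DKK2* and *GLT8D2* among these markers from the same cells, so the count describes the population and does not test its name. *EPCAM*, an epithelial adhesion gene, stood at 312, 819 and 278 CPM in the skin sub-clusters of the 3 stages against 2.80, 12.6 and 8.87 CPM elsewhere. The study names sub-clusters 5 and 6 of HH31 both as skin. Here skin at HH31 means sub-cluster 5 alone and sub-cluster 6 is given by its number, because *EPCAM* was at 13.3 CPM in it while *PRRX1*, a transcription factor of limb mesenchyme, reached 1840 CPM. *DCN* was at 54.3 CPM in sub-cluster 6.

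*COL1A2* was the more broadly detected of the pair. It had 9251, 15124 and 13759 UMIs at HH25, HH29 and HH31, and 71.0%, 74.5% and 84.2% of all cells held at least 1. Its level peaked in nsCT at each stage. *DCN* had 1884, 6052 and 1131 UMIs, in 24.9%, 40.9% and 16.7% of cells, and its highest level lay in the skin at HH29 and HH31. At HH25 the skin, the nsCT and the chondrocytes shared the top of the *DCN* order within their intervals.

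At HH25 *COL1A2* reached 1379 CPM (1299 to 1463) in nsCT, with a UMI in 89.6% of its 357 cells. The chondrocytes followed at 722 CPM (684 to 762), the apical ectodermal ridge (AER) at 666 CPM (471 to 914, from 38 UMIs) and the large mesenchyme sub-cluster at 636 CPM (620 to 652). Skin, muscle, distal mesenchyme and blood lay between 407 and 501 CPM. nsCT thus stood apart from the next population by a log2 ratio of 0.93 (0.82 to 1.05), whereas only 2 of the 7 steps between neighbours in the order had an interval that left out 0. The whole range from blood to nsCT spanned 3.39-fold.

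*DCN* at HH25 was at 223 CPM (186 to 266) in skin, 221 CPM (190 to 256) in nsCT and 202 CPM (182 to 224) in chondrocytes. The log2 ratio of skin to nsCT was 0.01 (-0.33 to 0.35), an interval that leaves room for a difference of either sign. The mesenchyme had 121 CPM (114 to 128), below the chondrocytes by a log2 ratio whose interval left out 0 (0.74, 0.57 to 0.91). Blood, AER, distal mesenchyme and muscle followed at 78.8, 70.1, 45.3 and 27.5 CPM, from 24, 4, 18 and 7 UMIs. The range from muscle to skin spanned 8.12-fold, wider than that of *COL1A2*.

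At HH29 the authors placed nsCT in sub-clusters 4 and 9, and these differed in both genes. *COL1A2* was at 1515 CPM (1458 to 1574) in sub-cluster 4 and at 743 CPM (691 to 798) in sub-cluster 9. *DCN* was at 607 CPM (571 to 645) in sub-cluster 4 and at 247 CPM (217 to 279) in sub-cluster 9. The log2 ratios of 4 to 9 were 1.03 (0.91 to 1.15) for *COL1A2* and 1.30 (1.1 to 1.5) for *DCN*, so that sub-cluster 4 carried the larger part of the fibrous signal. It held 7.93% of the cells of the library and 17.5% of the UMIs of each gene.

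Sub-cluster 14 of HH29, which the study names after the secreted Wnt modulator *SFRP2*, came next for *COL1A2* with 1132 CPM (1065 to 1202), ahead of the second nsCT sub-cluster. Its *DCN* level of 585 CPM (537 to 636) could not be separated from that of sub-cluster 4, with a log2 ratio of 4 to 14 of 0.05 (-0.10 to 0.21). The interdigit sub-clusters 6, 12 and 2 had *COL1A2* at 800, 703 and 682 CPM. Their *DCN* was less even, with 333, 399 and 169 CPM in the same order, the last being the sub-cluster behind digit 4.

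The other HH29 populations of the skeletal and mesenchymal lineages had *COL1A2* between 465 CPM (distal mesenchyme) and 546 CPM (a cycling sub-cluster), with 1 exception. The joint sub-cluster had only 270 CPM (220 to 329) of *COL1A2* but 336 CPM (279 to 400) of *DCN*. Against early chondrocytes its log2 ratio was -0.82 (-1.14 to -0.51) for *COL1A2* and 1.21 (0.86 to 1.55) for *DCN*, opposite directions for the 2 genes. Late and early chondrocytes had 138 and 145 CPM of *DCN*.

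Skin had the highest *DCN* at HH29 but not the highest *COL1A2*. *DCN* reached 894 CPM (827 to 965) there, with a UMI in 87.9% of the 182 cells, while *COL1A2* was at 577 CPM (524 to 635). Against nsCT sub-cluster 4 the log2 ratio of skin was 0.56 (0.42 to 0.70) for *DCN* and -1.39 (-1.54 to -1.24) for *COL1A2*. Skin made up 2.67% of the cells and 11% of all *DCN* UMIs of the library.

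At HH31 *COL1A2* was at 1844 CPM (1751 to 1940) in nsCT, where 94.4% of the 304 cells held a UMI. Sub-cluster 6 followed at 1241 CPM (1177 to 1308) and the distal mesenchyme at 1174 CPM (1123 to 1227). The cycling and interdigit sub-clusters lay between 855 and 1079 CPM, early chondrocytes at 937 CPM, skin at 657 CPM (610 to 707) and late chondrocytes lowest at 587 CPM (539 to 638). The order was finely graded, with 6 of 10 steps having an interval that left out 0, over a range of only 3.14-fold.

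*DCN* at HH31 was concentrated in skin, at 311 CPM (279 to 346) with a UMI in 49.6% of 367 cells. Skin held 7.65% of the cells and 30.4% of the *DCN* UMIs. nsCT was next at 105 CPM (83.7 to 130, from 85 UMIs), a log2 ratio of skin to nsCT of 1.57 (1.22 to 1.93). From nsCT down to the cycling sub-cluster 9, at 43.2 CPM, no neighbouring pair was separated beyond its interval, although some farther apart were. For nsCT over the cycling sub-cluster 7 the log2 ratio was 0.76 (0.34 to 1.18). Late chondrocytes then stood alone at 9.42 CPM (4.31 to 17.9, from 9 UMIs), with a log2 ratio to early chondrocytes of -2.54 (-3.72 to -1.56), whereas *COL1A2* differed between the same populations by -0.67 (-0.81 to -0.54).

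**Figure D1:**
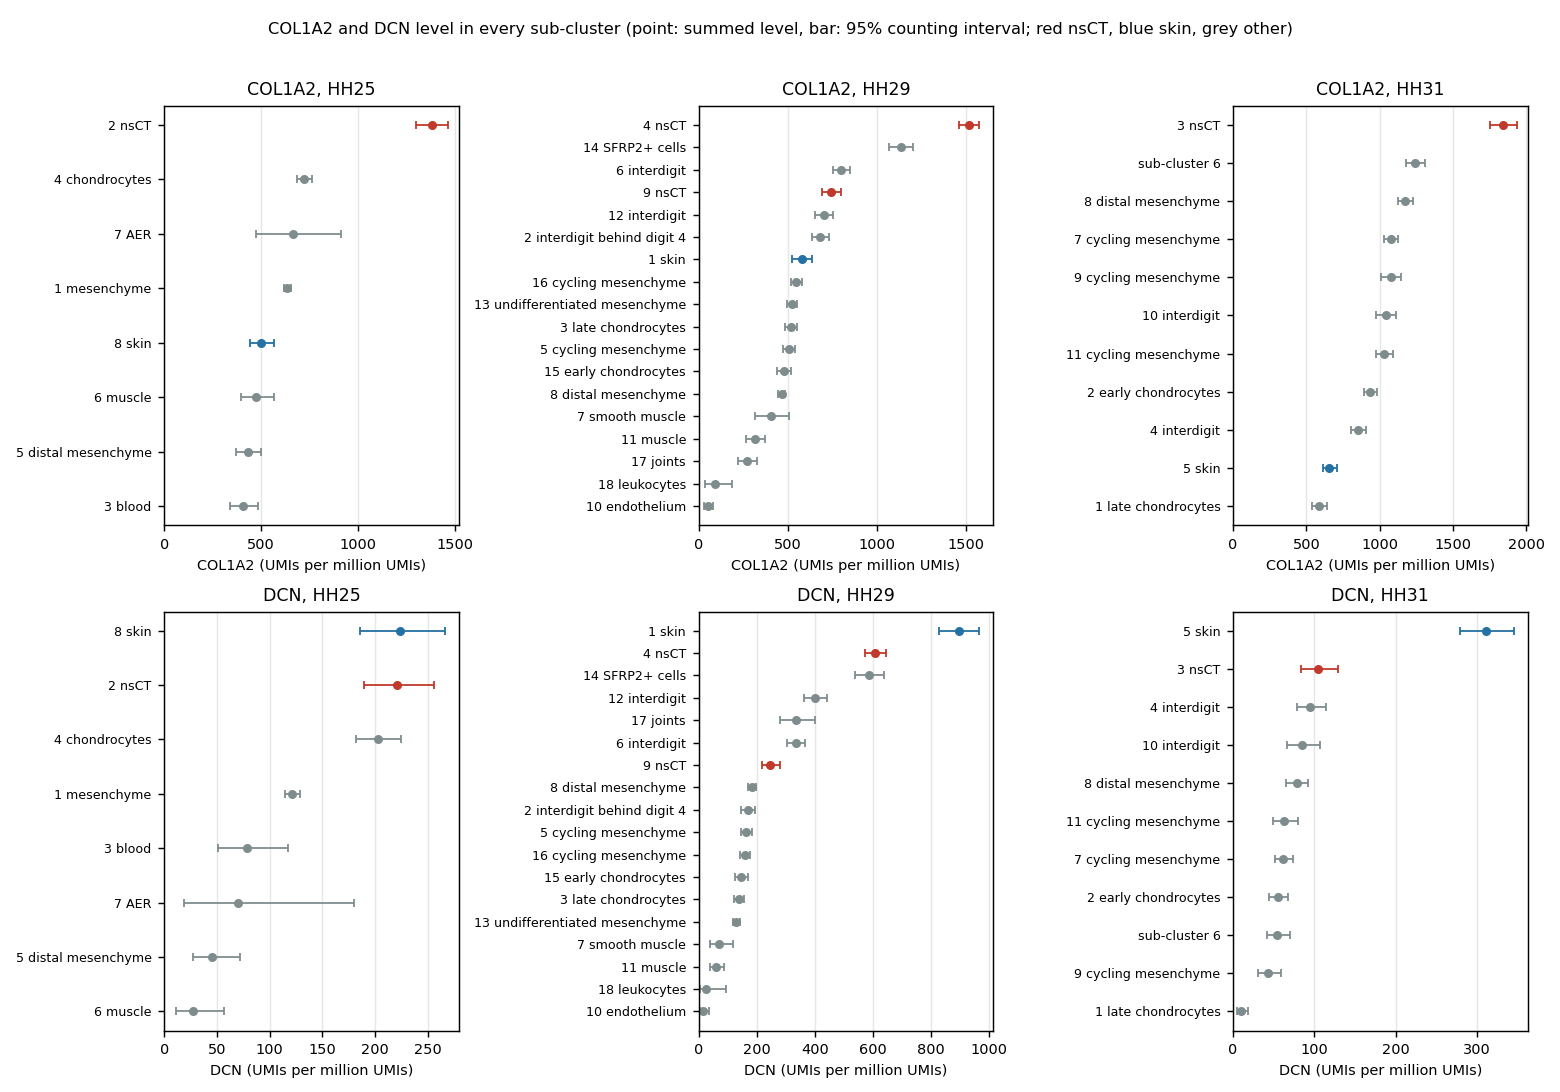
Level of *COL1A2* (top) and *DCN* (bottom) in each sub-cluster at the 3 stages, in CPM, with points for the summed level and bars for the 95% counting interval. nsCT (red) leads for *COL1A2* at each stage, with 1379, 1515 and 1844 CPM, and skin (blue) leads for *DCN* at HH29 and HH31, with 894 and 311 CPM.

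Against all other cells of its library, nsCT was higher in *COL1A2* at each stage, with the HH31 interval below those of HH25 and HH29. The log2 ratio was 1.14 (1.04 to 1.23), 1.14 (1.09 to 1.20) and 0.91 (0.83 to 0.98) from HH25 to HH31. For *DCN* it was 0.75 (0.52 to 0.97), 1.08 (0.99 to 1.16) and 0.32 (-0.01 to 0.64). The last interval reaches 0, and it is the comparison most affected by which cells are on the other side. Against mesenchymal and skeletal cells alone, without skin, the HH31 *DCN* ratio was 0.76. The HH29 ratios pool 2 unlike nsCT sub-clusters. Each against all other cells, sub-cluster 4 was at 1.42 (1.36 to 1.48) for *COL1A2* and 1.43 (1.33 to 1.52) for *DCN*. Sub-cluster 9 was at 0.24 (0.13 to 0.35) and -0.04 (-0.23 to 0.14). The *SFRP2* sub-cluster 14 was at 0.88 and 1.28.

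The share of genes at least 2-fold higher in nsCT was 4.65%, 4.03% and 4.96% in stage order, and the share at least 2-fold lower was 12.8%, 7.14% and 14%. *COL1A2* was past 2-fold in nsCT at HH25 and HH29, and *DCN* at HH29. The HH29 calls hold for the pooled nsCT and for sub-cluster 4, and for neither gene in sub-cluster 9. In skin, 8.98%, 8.76% and 6.3% of genes were at least 2-fold higher and 20%, 17.5% and 20% at least 2-fold lower. *DCN* was past 2-fold in skin at HH29 and HH31, and *COL1A2* was past 2-fold in skin in neither direction at any stage.

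In skin the log2 ratio of *DCN* against the other cells was 0.75 (0.47 to 1.01), 1.94 (1.82 to 2.06) and 2.27 (2.08 to 2.45). That of *COL1A2* was -0.44 (-0.62 to -0.26), -0.14 (-0.28 to -0.00) and -0.70 (-0.81 to -0.60). The median gene with at least 100 UMIs was shifted by -0.20, -0.13 and -0.25 in skin and by -0.11 in nsCT at HH25. Relative to it the *DCN* ratios in skin were 0.95, 2.06 and 2.51 and those of *COL1A2* -0.23, -0.01 and -0.46, so that at HH29 the lower *COL1A2* of skin was not seen on this scale. With sub-cluster 6 counted as skin the HH31 *DCN* ratio was 1.47 (1.29 to 1.64) rather than 2.27. In nsCT at HH25 the ratios relative to the median gene were 1.25 for *COL1A2* and 0.86 for *DCN*.

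Dividing *DCN* by *COL1A2* within a population removes the depth and the size of that population. Skin had 44.6 *DCN* UMIs per 100 *COL1A2* UMIs (35.7 to 55.3) at HH25, then 155 (137 to 175) and 47.3 (41.5 to 53.9). nsCT had 16 (13.6 to 18.8), 38.6 (36.1 to 41.1) and 5.69 (4.51 to 7.08), below or near the library values of 20.4, 40.0 and 8.22. The HH29 joints, at 124 (94.6 to 164), came next to the skin of that stage.

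At the low end were muscle at HH25 with 5.79 (2.28 to 12.3), smooth muscle and muscle at HH29 with 17.3 and 19.3, and late chondrocytes at HH31 with 1.60 (0.73 to 3.07). Late chondrocytes at HH29, by contrast, had 26.8 (23.2 to 30.8), not far from early chondrocytes at 30.6. The HH29 nsCT sub-clusters 4 and 9 stood at 40.1 (37.3 to 43.1) and 33.2 (28.7 to 38.3).

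**Figure D2:**
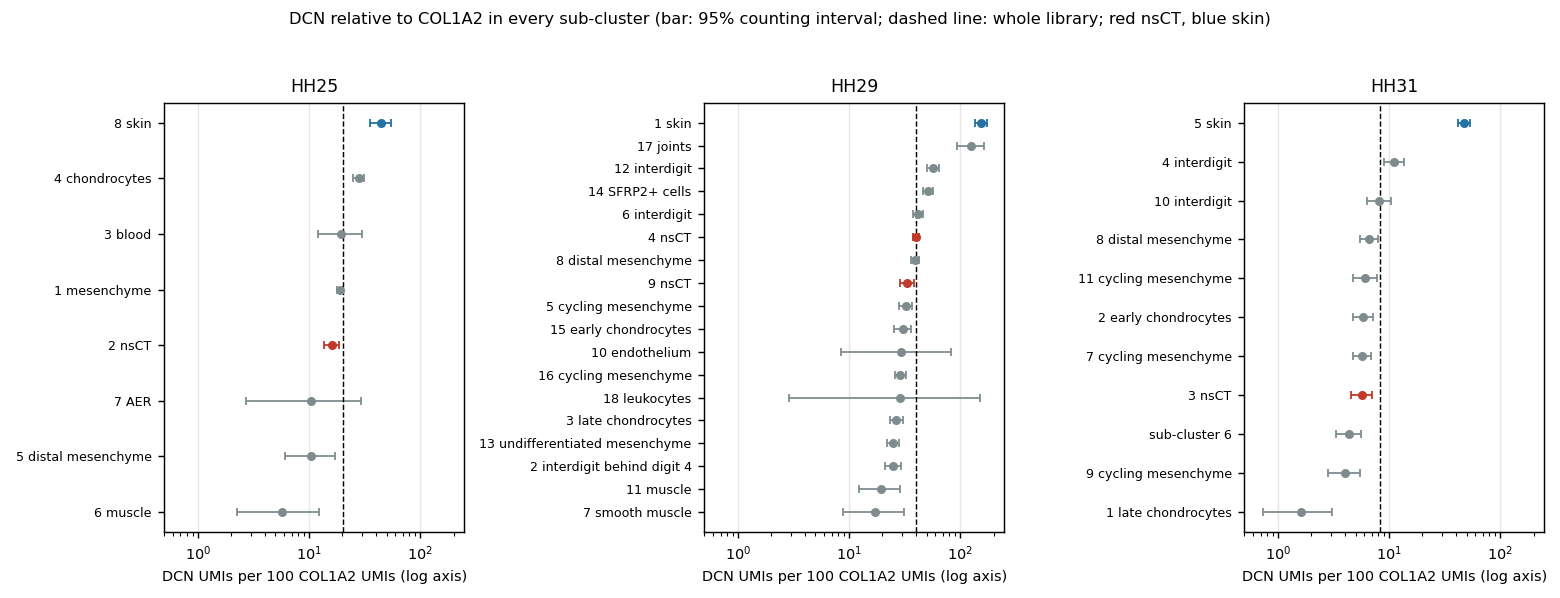
*DCN* UMIs per 100 *COL1A2* UMIs in each sub-cluster on a log axis, with 95% counting intervals and the library value as a dashed line. Skin is highest at every stage, with 44.6, 155 and 47.3, and late chondrocytes are lowest at HH31 with 1.60.

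The skin values can be read beside genes that skin should lack. *PRRX1* had 9.07 CPM in skin against 709 CPM in mesenchymal and skeletal cells at HH25, 139 against 858 CPM at HH29 and 58.7 against 1154 CPM at HH31. *LUM*, the lumican gene, had 12.7, 10.8 and 13.6 CPM in skin against 128, 169 and 199 CPM. For each 100 *PRRX1* UMIs the HH31 skin held 529 *DCN* and 1118 *COL1A2* UMIs, whereas the mesenchymal and skeletal cells held 5.6 and 92.8. The part of free RNA in the skin levels was not tested.

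Skin cells with and without a *DCN* UMI, thinned to 1000 UMIs each, were then compared for epithelial and mesenchymal genes. At HH29 *EPCAM* stood at 69.8 UMIs per 100 cells in the 116 cells with *DCN* and at 78.8 in the 66 cells without (log2 ratio -0.17, -0.69 to 0.36). *PRRX1* stood at 14.7 and 12.1 UMIs per 100 cells (0.27, -1.02 to 1.69). *COL1A2* at HH29 was higher in the cells with *DCN*, at 81.9 against 34.8 UMIs per 100 cells (1.23, 0.56 to 1.96). Its log2 ratio was 0.48 (0.08 to 0.88) at HH31 and -0.13 (-0.88 to 0.56) at HH25, where the interval includes 0. At HH31 *PRRX1* was lower in the 92 skin cells with *DCN* (1 UMI) than in the 275 without (20 UMIs), with a log2 ratio of -2.74 (-8.12 to -0.10).

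Endothelium and leukocytes at HH29 gave the lowest values of both genes at that stage. *COL1A2* was at 50.9 CPM (29.6 to 81.4) with a UMI in 15.9% of 63 endothelial cells, and at 91.7 CPM (36.9 to 189) in 22.7% of 22 leukocytes. *DCN* was at 15 CPM (4.86 to 34.9) and 26.2 CPM (3.17 to 94.7), from 5 and 2 UMIs. Their median depths, 3913 and 3382 UMIs per cell, were above the 2708 of nsCT. The range from endothelium to the leading population was 29.8-fold for *COL1A2* and 59.8-fold for *DCN*.

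The HH25 blood sub-cluster is no such floor. It held *COL1A2* at 407 CPM (339 to 485), with *PRRX1* at 322 CPM and *LUM* at 233 CPM, above the 128 CPM of *LUM* in mesenchymal and skeletal cells. The *COL1A2* value of blood at HH25 is therefore given together with these mesenchymal genes, and their part in it was not tested. HH25 muscle had 475 CPM of *COL1A2* beside 126 CPM of *PRRX1*.

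Shares of cells with a UMI followed the levels once cells were thinned to 1000 UMIs. *COL1A2* was then found in 72.0%, 62.5% and 77.0% of nsCT cells and in 41.2%, 44.0% and 41.1% of skin cells. *DCN* was found in 19.0%, 32.7% and 10.2% of nsCT cells and in 19.0%, 63.7% and 25.1% of skin cells. In HH29 endothelium the thinned shares were 3.17% for *COL1A2* and 0 of 63 cells for *DCN*.

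Values of single nsCT cells rest on few UMIs, 1111, 3403 and 1495 of *COL1A2* and 178, 1312 and 85 of *DCN* in 357, 871 and 304 cells, so that the lower median of *DCN* cannot be told apart from its lower level. The median nsCT cell had 12.4, 9.25 and 15.4 *COL1A2* UMIs per 10000, with maxima of 60.6, 82.6 and 107. For *DCN* the median cell was at 0 at HH25 and HH31 and at 2.97 at HH29. In skin at HH29 the *DCN* median was 8.42 and the *COL1A2* median 4.54.

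The 3 technical replicates of HH29 gave the only repeated measurement. In nsCT sub-cluster 4 *COL1A2* was at 1531, 1615 and 1311 CPM and *DCN* at 588, 619 and 621 CPM. In skin *COL1A2* was at 543, 770 and 412 CPM and *DCN* at 835, 901 and 947 CPM. The replicates of skin and of sub-cluster 4 did not overlap for either gene, *DCN* being above in skin and *COL1A2* above in nsCT in 3 of 3. The share of all genes whose replicates likewise did not overlap between these populations was not computed. Skin and sub-cluster 4 were also the populations with the highest pooled HH29 levels of *DCN* and *COL1A2*. The replicates are parts of the same library, so their lack of overlap is a description.

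Replicate 3 had less *COL1A2* in the library as a whole, 510 CPM against 658 and 684 CPM, while its *DCN* was not lower, 271 CPM against 243 and 255 CPM. Ratios within a replicate were little changed by this. Within replicates 1, 2 and 3 the log2 ratio of nsCT to the other cells was 1.12, 1.12 and 1.24 for *COL1A2* and 1.11, 1.13 and 0.93 for *DCN*. That of skin was 1.88, 1.93 and 1.98 for *DCN*, and -0.28, 0.18 and -0.32 for *COL1A2*, where replicate 2 went the other way with an interval that includes 0 (-0.04 to 0.38).

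**Figure D3:**
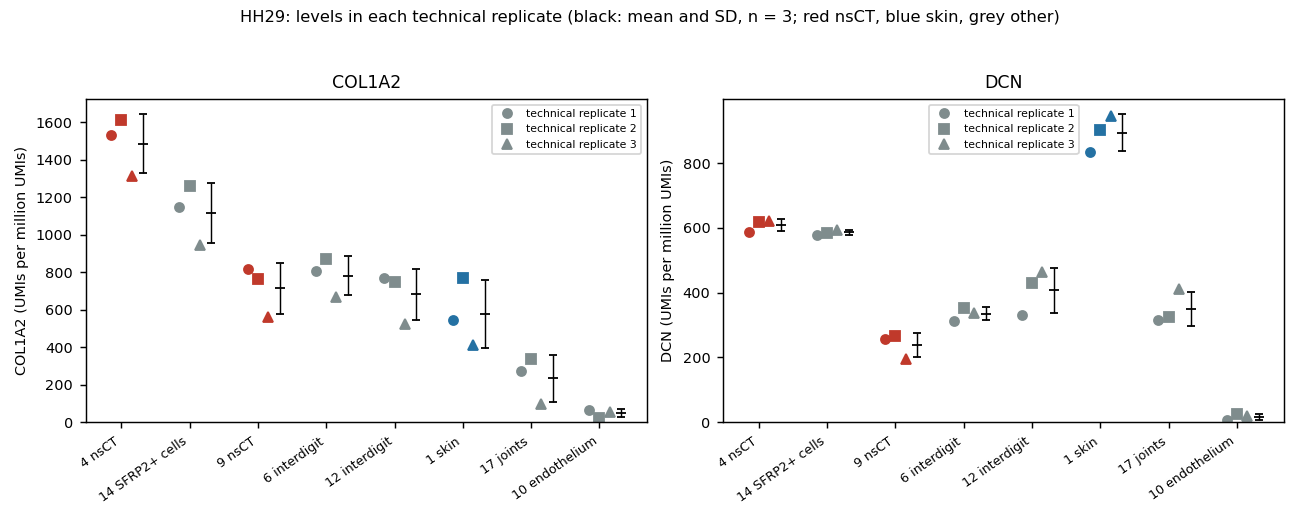
*COL1A2* and *DCN* in 8 HH29 sub-clusters, in CPM, with a symbol for each technical replicate and the mean and SD (n = 3) in black. In nsCT sub-cluster 4 *COL1A2* lies between 1311 and 1615 CPM and *DCN* between 588 and 621 CPM, and *DCN* in skin lies above, between 835 and 947 CPM.

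Whether the pair was found in the same cells was examined in nsCT cells thinned to 1000 UMIs. At HH29 *DCN* was found in 37.1% (33.1 to 41.3) of the 544 nsCT cells with *COL1A2* and in 25.4% (20.8 to 30.5) of the 327 without, a difference of 11.8 percentage points (5.24 to 18). It was 20.9 points without technical replicate 1 and 22.6 points in unthinned cells. Sub-cluster 4 had 44.9% against 31.5% (13.3 points, 4.17 to 22.0) and sub-cluster 9 had 20.3% against 18.9% (1.48 points, -7.54 to 10.4), intervals that overlap, and the sub-clusters were not tested against each other. At HH25 the shares were 20.2% and 16% (4.23 points, -5.65 to 12.8), and at HH31 11.5% and 5.71% (5.82 points, -3.28 to 12.2), so that a difference was not detectable at this depth. Another random thinning turned the HH25 value to -2.55 points. In HH29 skin they were 80.0% and 51.0% (29 points, 14.5 to 42.0), whereas the difference in skin was 0.20 points (-10.7 to 11.8) at HH25 and 5.79 points (-3.57 to 15.4) at HH31, both intervals including 0.

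Genes were also ranked by their ratio between HH29 nsCT cells with and without each member. Only genes with at least 50 UMIs in the group where they were higher were ranked, 1960 for *COL1A2* and 1030 for *DCN*. The 2 rankings were thus drawn from unlike sets of genes. At every stage a gene could pass this minimum through its higher group alone. The leading genes are the extremes of a ranking by the ratio that is printed, and their intervals do not allow for this choice. Their leading genes were not the same, apart from *EGFL6*. This extracellular matrix gene of the EGF repeat family came first for each. It had 23.9 UMIs per 100 cells with *DCN* and 6.48 without (log2 ratio 1.88, 1.29 to 2.49), and 17.5 and 3.36 for *COL1A2* (2.38, 1.47 to 3.43). For *DCN* it was followed by *KERA* (1.85), the water channel gene *AQP1* (1.48), *LUM* (1.4) and the growth factor gene *MDK* (1.04). For *COL1A2* it was followed by *ALCAM* (1.59), *FILIP1L* (1.5), *PDGFD* (1.37) and *LY6E* (1.34). Both comparisons pooled the HH29 nsCT sub-clusters 4 and 9, which differed in both members. In thinned cells *DCN* was found in 40.7% of sub-cluster 4 and 19.6% of sub-cluster 9, and *COL1A2* in 68.9% and 52.0%. The part of this mix of sub-clusters in the HH29 gene ratios was not tested. At HH25 and HH31 the leading genes were mostly of general cell functions, such as *PSMA6* and *RAN* at HH25 and *EIF3I* and *RPS27A* at HH31, with log2 ratios of at most 1.96. At these stages the minimum left only 569 and 445 genes for *COL1A2* and 187 and 110 for *DCN*. The kind of gene that leads there cannot be told apart from this filter.

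Over sub-clusters of at least 50 cells the log2 levels of the pair had a Pearson r of 0.63 (7 points), 0.79 (16 points) and 0.15 (11 points) at the 3 stages. Without the skin these were 0.79, 0.86 and 0.73. The points of a stage share a library and its composition, and r is a description. Leaving out skin raised r at each stage, most of all at HH31. No other sub-cluster was left out in this way. The HH29 joints, with 124 *DCN* UMIs per 100 *COL1A2* UMIs, and the HH31 late chondrocytes, with 1.60, were also far from their library values of 40.0 and 8.22.

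Centred within each stage, over 34 sub-clusters and 5542 genes, r between *COL1A2* and *DCN* was 0.65. *DCN* was in place 70 among the genes most like *COL1A2*, and *COL1A2* in place 26 among those most like *DCN*. Among the genes most like *COL1A2* were ENSGALG00000036073 (0.89), *WSB2* (0.83), ENSGALG00000033678 (0.83), and the non-muscle myosin gene *MYH10* (0.80). The genes most like *DCN* were *PNISR* (0.81), ENSGALG00000015459 (0.78), *SPARC* (0.77), which encodes a collagen-binding matricellular protein, *LGR4* (0.77) and *SDK1* (0.76).

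The 2 genes can be placed among the other genes of the fibrous matrix. The list of collagens, SLRPs, collagen synthesis enzymes and matrix glycoproteins held 46 genes beside the pair, of which 26, 27 and 25 had an identifier here and at least 20 UMIs in the library. At least 2-fold higher in nsCT were 6, 5 and 3 of them (23.1%, 18.5% and 12%, against 4.65%, 4.03% and 4.96% of all genes), and at least 2-fold lower were 3, 2 and 4 (11.5%, 7.41% and 16%, near the 12.8%, 7.14% and 14% of all genes). The HH29 count of higher genes was 3 without technical replicate 2 and 2 in the rebuilt clusters that leave the list out. The median log2 ratio of the list was -0.14, 0.26 and -0.03, beside -0.12, -0.03 and -0.09 over all genes. Most of the measured list was thus not past 2-fold in nsCT in either direction. The lower genes were *COL14A1*, *THBS1* and *TGFBI* at HH25, *EPYC* and *POSTN* at HH29, and *LUM*, *FBLN1*, *POSTN* and *THBS1* at HH31. Of the 7 matrix glycoproteins measured, 2, 1 and 3 were 2-fold lower in nsCT and 0, 1 and 1 higher. Identifiers came from the study's tables of genes enriched in its sub-clusters or grouped by co-expression in these same cells. The share of all genes has no such limit, so the shares are not on equal terms, here and for the other gene lists.

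Among the collagens that assemble with type I fibrils, *COL5A1*, which encodes a chain of the minor fibrillar type V collagen that starts fibrils, was higher in nsCT at each stage. Its log2 ratio was 1.06 (0.84 to 1.29), 1.04 (0.98 to 1.11) and 0.73 (0.61 to 0.85). At HH29 it was highest in nsCT sub-cluster 9, at 1086 CPM, with 771 CPM in sub-cluster 4, the reverse of the order of *COL1A2* and *DCN*. *COL5A2* was at 0.53, 0.49 and 1.26. *COL6A1* was at 1.29 (0.16 to 2.26), 0.27 and 0.42, and *COL6A2* at 1.42 (-0.30 to 2.80), 0.79 and 0.67. *COL3A1*, the fibrillar collagen of soft tissues, went the other way in nsCT at HH29 and HH31, at -0.23 (-0.45 to -0.01) and -0.94 (-1.86 to -0.15), and was at -0.59 (-1.61 to 0.27) at HH25. *COL12A1*, a fibril-associated collagen, was at 1.48 (0.74 to 2.16) and 1.11 (0.87 to 1.34) at HH25 and HH29, and at -0.08 (-0.58 to 0.37) at HH31.

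Skin had a different set of collagens beside its *DCN*. Of the 26, 27 and 25 fibrous matrix genes measured, 10, 6 and 5 were at least 2-fold higher in skin (38.5%, 22.2% and 20%). More of them, 11, 13 and 13, were at least 2-fold lower (42.3%, 48.1% and 52%). Over all genes the shares were 8.98%, 8.76% and 6.3% higher and 20%, 17.5% and 20% lower. *COL14A1*, a fibril-associated collagen that binds decorin, had a log2 ratio in skin of 7.76 (6.89 to 8.75), 4.88 (4.56 to 5.20) and 3.17 (2.91 to 3.43), with 90.0% of its UMIs in the HH25 skin. *COL3A1* was at 2.14, 1.20 and 3.03. *FN1*, the fibronectin gene, was at 3.61, 2.11 and 4.37, and *SPARC* at 1.79, 1.28 and 0.93. *COL5A2* was lower in skin at -0.95, -1.70 and -1.60, and *COL6A1* at -4.63 and -3.76 at HH29 and HH31.

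**Figure D4:**
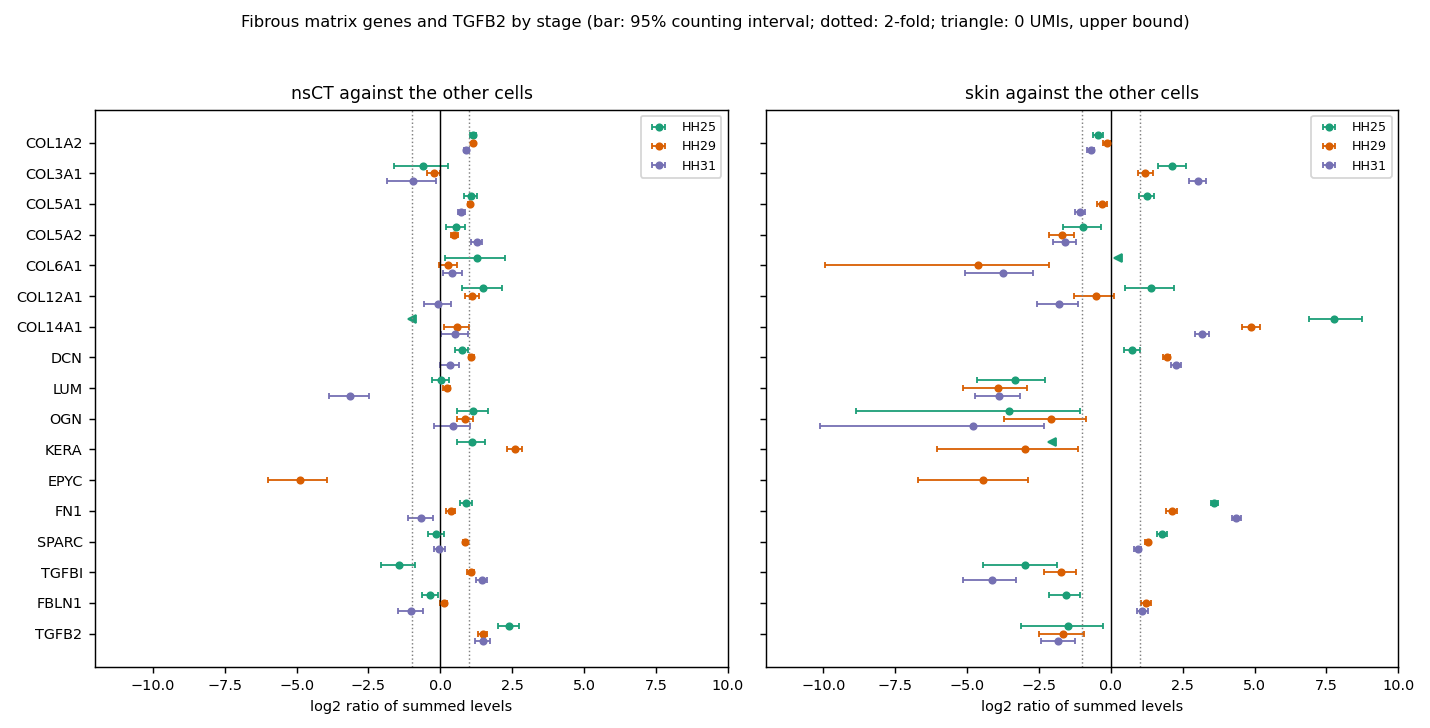
Log2 ratio of the summed level in nsCT (left) and in skin (right) against the other cells of the library for 16 fibrous matrix genes and *TGFB2*, with 95% counting intervals and 1 color for each stage. *COL1A2* is to the right of 0 in nsCT and to the left in skin (at HH29 by -0.14, or by -0.01 relative to the median gene), and *DCN* is farther to the right in skin (1.94 and 2.27 at HH29 and HH31) than in nsCT (1.08 and 0.32).

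The SLRP genes were examined next, since in the chicken annotation of RefSeq *EPYC*, *KERA*, *LUM* and *DCN* are consecutive genes on chromosome 1. Each of these neighbours was highest elsewhere. At HH29 *EPYC*, the epiphycan gene of cartilage, had 990 CPM (945 to 1037) and 89.6% of its UMIs in late chondrocytes, where *DCN* was at 138 CPM. *KERA*, the keratocan gene, had its highest level in nsCT sub-cluster 4, 124 CPM (108 to 142) and 43.3% of its UMIs, with the *SFRP2* sub-cluster next at 73.1 CPM. *LUM* had 520 CPM (498 to 542) and 58.0% of its UMIs in the distal mesenchyme, where *DCN* was at 184 CPM.

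No other SLRP gene measured shared the high *DCN* level of skin. *LUM* had log2 ratios in skin of -3.34, -3.91 and -3.87, *OGN*, the osteoglycin gene, -3.55, -2.09 and -4.80, and *KERA* and *EPYC* at HH29 -3.00 and -4.43. All of these intervals lay below 0. In nsCT *OGN* was at 1.14 (0.57 to 1.66), 0.86 (0.57 to 1.14) and 0.45 (-0.21 to 1.04) and *KERA* at 1.09 (0.60 to 1.55) and 2.60 (2.34 to 2.86) at HH25 and HH29, the same side as *DCN*. *LUM* in nsCT was at 0.02, 0.22 and -3.13, so that at HH31 it was lower in the population in which *DCN* ranked next after skin.

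**Figure D5:**
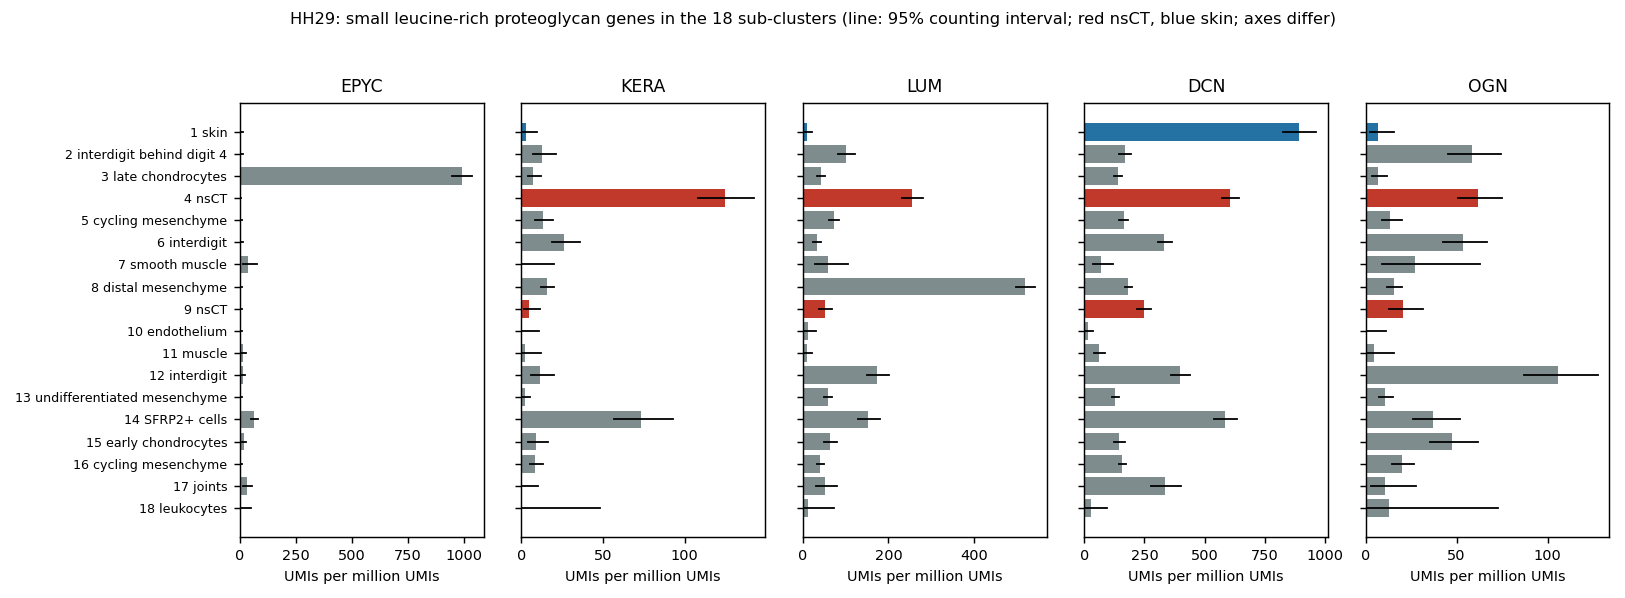
Levels of 5 SLRP genes in the 18 HH29 sub-clusters, in CPM on axes that differ between genes, with bars for the summed level and lines for the 95% counting interval. *DCN* is highest in skin (894 CPM), *EPYC* in late chondrocytes (990 CPM), *KERA* in nsCT sub-cluster 4 (124 CPM), *LUM* in distal mesenchyme (520 CPM) and *OGN* in interdigit sub-cluster 12 (106 CPM).

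Of the enzymes that modify and fold collagen chains, 9 were measured at each stage, and 0, 1 and 1 of them were 2-fold higher in nsCT, beside 4.65%, 4.03% and 4.96% of all genes. The one at HH29 and HH31 was *PLOD1*, a lysyl hydroxylase, with log2 ratios of 1.01 (0.89 to 1.13) and 1.06 (0.78 to 1.32). *SERPINH1*, the collagen chaperone, was at -0.19, -0.12 and -0.13, and *P4HB*, a subunit of prolyl 4-hydroxylase, at -0.12, 0.09 and -0.34. Of the matrix turnover genes, *MMP2*, a gelatinase, was at 0.57, 0.92 and 0.41 in nsCT and at -1.93, -1.82 and -1.98 in skin, and *TIMP3*, a metalloproteinase inhibitor, at 0.04, 0.07 and 0.11 in nsCT.

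Decorin binds TGF-beta, and *TGFB2* was 2-fold or more higher in nsCT at each stage, with log2 ratios of 2.37 (2.0 to 2.73), 1.47 (1.30 to 1.64) and 1.47 (1.21 to 1.71). nsCT was not its leading population at any stage. At HH25 *TGFB2* was at 397 CPM in muscle against 104 CPM in nsCT. At HH29 it was at 475 CPM in the joints, 227 CPM in muscle and 162 CPM in nsCT sub-cluster 4. At HH31 late chondrocytes had 265 CPM and nsCT 195 CPM. *TGFB2* was lower in skin at -1.5, -1.66 and -1.82, unlike *DCN*. *TGFB3* was at 0.08 and 0.54 at HH25 and HH29 and at 2.04 (1.81 to 2.26) at HH31, and the receptor gene *TGFBR2*, measured at HH29, at 1.39 (0.92 to 1.84). At HH31 1 of the 3 TGF-beta genes measured, *TGFB1*, was 2-fold or more lower in nsCT, beside 14% of all genes. Only 2, 3 and 3 collagen and matrix receptors had at least 20 UMIs, too few to read an absence from. None of them was 2-fold higher in nsCT, beside 4.65%, 4.03% and 4.96% of all genes. At HH29 1 of the 3, *ITGA2*, was 2-fold or more lower in nsCT, beside 7.14% of all genes. *ITGA2*, a collagen-binding integrin, was at 4.86 and 6.04 in skin at HH29 and HH31.

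Of the transcription factors of tendon and connective tissue, 4 of 8, 3 of 9 and 3 of 9 were 2-fold or more higher in nsCT, beside 4.65%, 4.03% and 4.96% of all genes, and 1, 0 and 2 were 2-fold or more lower, beside 12.8%, 7.14% and 14%. *MEOX2* (3.39, 2.32 and 3.13) and *NR2F2* (2.56, 1.47 and 2.48) were 2-fold or more higher in nsCT at each stage. Both are also among the nsCT markers counted above, so the count of higher factors in part repeats that one. *MKX*, a homeobox gene of tendon fibroblasts, was at 2.22 (1.93 to 2.51) at HH29 and 3.02 (1.75 to 4.19, from 29 UMIs in the library) at HH31. *OSR1*, a factor of muscle connective tissue, was at 3.14, 0.29 and 0.66. The lower factors in nsCT were *TWIST1* at HH25 (-1.21) and, at HH31, *TCF7L2* (-1.37) and *EGR1* (-1.08, -4.16 to 0.83). In skin 7 of 8, 7 of 9 and 9 of 9 factors were 2-fold or more lower, beside 20%, 17.5% and 20% of all genes, although for *EGR1* and *MKX* at HH31 and *OSR1* at HH25 the interval reached 0. *EGR1* was higher in skin at HH29, at 1.16 (0.68 to 1.60), and stood at 1.34 (-1.81 to 3.39, from 2 UMIs in skin) at HH25.

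To ask how far the authors' grouping shaped these values, cells were clustered again without the fibrous matrix list, *COL1A2* and *DCN* included. Skin was recovered nearly whole at HH29 and HH31, and *DCN* in the rebuilt skin was at 207, 888 and 312 CPM. The rebuilt clusters that matched nsCT had *COL1A2* at 1375 CPM at HH25, at 1447 and 718 CPM at HH29 and at 1795 CPM at HH31. These shared fewer cells with the deposited nsCT, with overlaps (cells in both over cells in either) of 0.51, 0.68, 0.51 and 0.65. At each stage a cluster matched to nsCT had the highest *COL1A2*. The second at HH29 was below the cluster matched to the *SFRP2* sub-cluster, at 1350 CPM. Skin had the highest *DCN* at HH29 and HH31, whereas at HH25 the chondrocyte cluster was at 211 CPM. The clustering method also differed from the authors', and rebuilt clusters were named by their overlap with the deposited ones. The effect of leaving out the list alone was therefore not tested.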

How the data were processed

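Raw UMI counts per gene and cell were deposited by the authors, 1 table per stage, with sub-cluster numbers. Per the labels and the study's methods the counts came from Cell Ranger v2 (HH25, HH31) or the Drop-Seq pipeline (HH29) on an Ensembl chicken annotation, and the authors clustered with Seurat. The cell cycle scores deposited in the same tables were regressed out when the clusters were rebuilt, together with depth and the mitochondrial share. Gene symbols were taken from the study's tables of genes enriched in its sub-clusters or grouped by co-expression, which name 3143 identifiers. Listed genes without one there were not analysed here.

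Cells over 4 times the mean UMI count, under 20% of the median or over 10% mitochondrial UMIs (10 of 12 named mitochondrial genes) were left out, keeping 5938 of 5982, 6806 of 6823 and 4796 of 4823. Doublets were treated only by the upper UMI limit. Library totals were 13778575, 23846769 and 13281515 UMIs. Counts were summed per population and intervals computed in Python 3.11.15 (scipy 1.17.1). On simulated HH25 counts 197 of 200 changed genes lay inside their interval. These counts were drawn from the Poisson model that the intervals assume, so variation between cells and replicates was left out. For co-detection and for the comparisons of cells with and without a UMI, cells were thinned to 1000 UMIs, and shallower cells (2 at HH29) were left out. Clusters were rebuilt with leidenalg 0.10.2. With 1 library per stage no p-value was computed.

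Named genes were both members and listed genes at least 2-fold different or defining for their list. Also named were the 5 most similar over sub-clusters by Pearson correlation of log2(CPM + 10), among genes with at least 100 UMIs in each library. The last were the 5 with the largest ratio between cells with and without a member, among genes with at least 50 UMIs in the group where they were higher. One of the genes most similar to *COL1A2* is not reported here. Members and lists were chosen with earlier results of these data known. Alternatives are given in the closing section.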

Additional observations from a re-analysis of the deposited data

Results flagged for a closer look

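Several fibrous matrix genes lay on opposite sides of the library level at different stages, with both intervals away from 0 and at least 1 ratio of 2-fold. *COL1A2* and *DCN* were not among them. Only this list was searched, and the share of all genes that meet the same rule was not computed. The difference between stages was not tested, and stage cannot be told apart from platform and dissection. In nsCT the log2 ratio of *TGFBI*, a collagen-binding matrix gene, was -1.43, 1.06 and 1.44 in stage order. *LUM* in nsCT was at 0.22 at HH29 and -3.13 at HH31. *COL14A1* in nsCT had no UMI at HH25, which allows a ratio of at most -0.99, and was at 0.57 and 0.51 at HH29 and HH31.

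In skin *FBLN1*, the fibulin-1 gene, was at -1.57 at HH25 and at 1.23 and 1.09 at HH29 and HH31. The opposite order was seen for *COL5A1* at 1.25, -0.32 and -1.06, for *CRTAP*, which takes part in collagen prolyl 3-hydroxylation, at 0.97, -1.46 and -1.0, and for *COL12A1* at 1.39 at HH25 and -1.80 at HH31.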

How the results depend on the processing

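No paired analysis was possible because each stage has 1 library. Of 115 values recomputed under other settings for 15 results, 100 stayed within the interval of the reported value or within 1.5 times the reported count, 15 moved and none reversed a sign that its interval had fixed. Some of the 100 had little room to move, since filtering on all 12 mitochondrial genes changed no HH29 value. Wide intervals, such as -5.65 to 12.8 points for *DCN* detection at HH25, also take in values of either sign. The tally is thus no measure of stability. Relative to the median gene, *COL1A2* in nsCT was 1.25 at HH25 and 0.99 at HH31, and *DCN* in skin 2.06 at HH29 and 2.51 at HH31. In rebuilt clusters *COL1A2* in HH29 nsCT was 1.02. Against mesenchymal and skeletal cells only, a comparison added after seeing the data, *DCN* in nsCT was 1.18 at HH29 and 0.76 at HH31. With HH31 sub-cluster 6 counted as skin, also added later, *DCN* in skin was 1.47.

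Fibrous matrix genes higher in HH29 nsCT numbered 8 at a fold of 1.5 and 2 in rebuilt clusters, and those in HH31 nsCT 5 at a fold of 1.5. Without thinning the difference in *DCN* detection was 13.3 points at HH25 and 22.6 at HH29. Leaving out each HH29 technical replicate in turn gave 1.12 to 1.16 for *COL1A2* in nsCT, 1.04 to 1.12 for *DCN* in nsCT, 1.91 to 1.96 for *DCN* in skin, 3 to 5 listed genes and 12 to 20.9 points. Without the shared barcodes, added likewise, *DCN* in HH31 nsCT was 0.34 (0.01 to 0.66), an interval away from 0, unlike the reported one. The cause of these changes was not tested. *DCN* in HH31 nsCT rests on 85 UMIs.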
